A study of Arabidopsis thaliana with 35 samples.

Results

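Long domains of histone H3 trimethylated at lysine 36 (H3K36me3) were followed through vernalization, the long cold that prepares Arabidopsis to flower. They were defined in seedlings that had not been in the cold: a peak of the first H3K36me3 replicate on chromosomes 1 to 5 of at least 5000 bp that overlapped a peak of at least 5000 bp in the second replicate. Of the 12191 peaks of the first replicate, 434 (3.56%) met this rule, and they held 12.2% of its peak length. The length of these peaks, and their H3K36me3 before cold, are the values the set was chosen by, and they are given as a description without a test.

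H3K36me3 is laid down behind RNA polymerase II as it moves along a gene, in Arabidopsis chiefly by the methyltransferase SDG8, and marks the body of transcribed genes. H3K4me3 marks the start of such genes, and H3K27me3, set by Polycomb complexes, marks silent ones. In vernalization these marks are best known at the floral repressor FLC, where cold lowers H3K36me3 and raises H3K27me3.

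All seedlings were Col-0 carrying a functional FRI allele, the allele that keeps FLC high without cold, and normal growth meant 22 °C and a day of 16 h light and 8 h dark. The NV seedlings saw no cold, the 40V seedlings were taken at the end of a 40 d cold treatment, and the T10 seedlings had the same treatment and then returned to normal growth for 10 d. ChIP-seq of 3 marks had 2 libraries for each mark and time. RNA-seq covered the same times (40V is given there as 40 d of cold) and cold of 1 h, 1 d, 10 d and 20 d as well, with 2 libraries in each of these 7 groups. The cold temperature is not given in the sources used here. Whole seedlings were used, and nothing in the labels says that the replicates were separate batches of plants, so p-values measure the spread between libraries, which may be technical.

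The H3K36me3 libraries held 15303541 and 23328019 filtered tags in NV, 16149621 and 22424166 at 40V, and 8493137 and 16691040 at T10. RNA libraries held between 2376796 (the shallower T10 library) and 19892125 reads in the genes used, and are called the deeper and the shallower library of their group, because the deposited table carries no replicate numbers. Over the 574 genes inside the domains that the RNA table lists, the 2 libraries of a group correlated, across genes that are not independent of each other, at 0.992 to 0.994 from 1 d to 40 d of cold, but at 0.938 in NV, 0.933 at 1 h and 0.882 at T10. The deeper NV library correlated better with the shallower 1 h library (0.980) than with the other NV library. Likewise the shallower NV library correlated better with the deeper 1 h library (0.972) than with the other NV library. This gap between the NV libraries moved with gene length: the median log2 ratio of the shallower to the deeper NV library was 0.71 over 92 domain genes of at least 10000 bp and -0.07 over 190 domain genes under 5000 bp. At T10 the same medians were 0.42 and -0.12, and after 40 d of cold they were 0.00 and 0.00. A change of a long domain gene against NV is therefore given with the library whose removal ends it.

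Most domains lay over the body of 1 long gene. The whole set of domains ran from 5001 to 25253 bp, with a median of 6245.5 bp, and 50 of them reached 10000 bp. The other 11640 shared peaks under 5000 bp had a median of 1706 bp. Domains were found on all chromosomes, 124 on chromosome 1, 58 on 2, 84 on 3, 66 on 4 and 102 on 5. The authors' fold enrichment at the summit of the domains ran from 2.23 to 8.69 with a median of 5.59, beside 4.14 over the shorter shared peaks.

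A gene was counted inside a domain where at least 50% of its length lay in it, using gene positions of the RefSeq annotation. By that count 303 domains held 1 protein-coding gene, 106 held 2, 18 held 3, 4 held 4 and 3 held none. In the 303 domains with a single gene, the gene filled a median of 98.3% of the domain, and at least 90% in 284 of them. The domain in turn covered a median of 73.5% of that gene, with quartiles at 69.9% and 79.1%. These genes had a median length of 8673 bp, beside 2078 bp over all 27432 protein-coding genes. In the 128 domains with several genes, 282 neighbouring genes with a median of 3339 bp lay under 1 peak.

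How often a gene lay inside such a domain went up with its length. Of genes of 15000 bp or more, 20 of 22 (90.9%) were inside, of those between 10000 and 15000 bp 72 of 100 (72.0%), and of those between 7500 and 10000 bp 163 of 246 (66.3%). The share was 10.1% (129 of 1271) between 5000 and 7500 bp and 0.779% (201 of 25793) for shorter genes, as the plot of genes inside by length shows. Since a long peak needs a long stretch of transcribed sequence, this order follows in part from the 5000 bp limit.

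**Figure D1:**
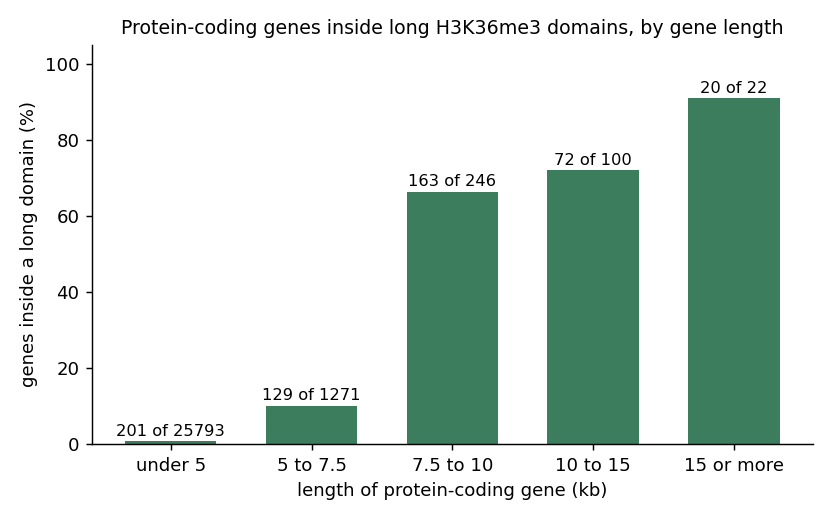
Bars give the percentage of protein-coding genes with at least 50% of their length inside a long H3K36me3 domain, by gene length in kb, with the counts above each bar. The share is 0.779% under 5 kb and 90.9% at 15 kb or more.

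The longest domain, at chr3:17801144-17826396 (TAIR10), covered ATM, the protein kinase that signals DNA double-strand breaks, over 25253 bp. Next came AT1G48090 with 24140 bp, AT4G17140 with 21023 bp, AT5G24740 (SHRUBBY, a root growth gene) with 17633 bp and TOR, the growth-controlling kinase, with 15893 bp. MDN1 (AT1G67120), an AAA ATPase of ribosome assembly, was split into a domain of 15452 bp and one of 5041 bp. AT5G23110 (14931 bp), AT2G17930 (14900 bp), ILA, a HEAT repeat protein (14841 bp), and the callose synthase gene GSL10 with its neighbour AT3G07170 (14578 bp) completed the longest 10. At the other end, the 3 domains nearest above the limit had 5001, 5002 and 5010 bp and lay over AT4G17040 and AT4G17050, AT5G53850 and AT5G53860, and AT1G54340. The 3 peaks nearest below had 4985, 4983 and 4982 bp, the first over AT2G07050.

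Related long genes fell on both sides of the rule. The list of PI3K-like and lipid kinases had 6 of 9 genes inside: TOR, ATM, AT2G17930, AT4G36080, ATPI4K ALPHA and FAB1A. Outside were the DNA damage kinase ATR and the lipid kinases FAB1B and FAB1C. ATR, 11171 bp long, had H3K36me3 peaks over 12.3% of its length in the NV library with less cover. Of the acetyl-CoA carboxylase genes, ACC1 was inside and had 122 normalised RNA counts in NV. ACC2 was outside, with 3.88 normalised counts and peaks over 29.3% of its length in the NV library with less cover. Of the catalytic subunits of DNA polymerase epsilon, TIL1 was inside and TIL2 outside, with no H3K36me3 peak in the NV library with less cover. These pairs were picked after their values were seen.

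Outside the domains, long genes also had less RNA per length. Per kb of gene, the median NV level of genes of 15000 bp or more was 3.10 normalised counts inside (20 genes) and 0.546 outside (2 genes), and between 10000 and 15000 bp it was 2.91 inside (72 genes) and 0.620 outside (21 genes). Between 7500 and 10000 bp the medians were 2.78 inside (163 genes) and 1.09 outside (73 genes). These medians cover only the genes in the RNA table. The longest genes outside were AT1G58602 (19695 bp) and the callose synthase gene GSL09 (16053 bp), the second with H3K27me3 over 40.8% of its length in the NV library with less cover.

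H3K4me3 sat at 1 end of the single-gene domains. Among the 303 single-gene domains, 295 to 299 held exactly 1 H3K4me3 peak in each of the 6 libraries, with a median covered length of 1437 and 1349 bp in NV, 1519 and 1359 bp at 40V, and 1437 and 1389 bp at T10. The share of the whole domain set covered by H3K4me3 had a median between 23.7% and 27.4% over the 6 libraries. Domains with 2 genes held medians of 2500.5 to 2748.5 bp of H3K4me3, and those with 3 or 4 genes 4042 to 4417.5 bp. Covered length thus went up with the number of genes, while ATM, the longest domain, had H3K4me3 over 3.75% to 4.12% of its length.

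The annotation used gives no strand, so each domain was turned to begin at the end with more H3K4me3, which was possible for 431 domains, 301 of them with a single gene. In these 301, H3K4me3 covered 61.8% to 70.0% of the near part of the domain on average, 2.70% to 4.06% of the middle part and 0.285% to 0.791% of the far part, when each domain was cut into 3 parts of equal length. The rule did not use H3K4me3, but the turning did, so the excess in the near part over the far part is partly its product. The H3K36me3 summit is the highest point of the peak. In the 301 single-gene domains it lay a median of 905 and 897 bp from the H3K4me3 end in NV. The medians were 1152 and 1080 bp at 40V, and 882 and 902 bp at T10. Both 40V medians lay beyond all others, while those of NV and T10 overlapped.

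**Figure D2:**
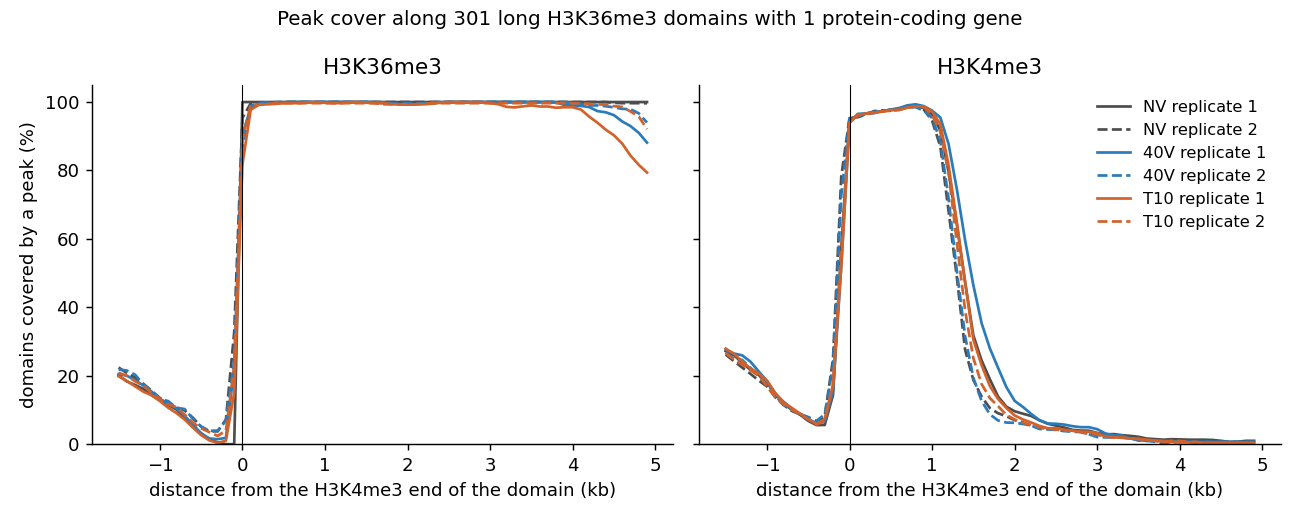
Lines give the percentage of 301 single-gene domains that a peak covers at each distance in kb from the end of the domain with more H3K4me3, for H3K36me3 (left) and H3K4me3 (right), 1 line for each library of NV, 40V and T10. H3K4me3 cover drops between 1 and 2 kb in all libraries, while H3K36me3 cover stays near 100% until the far end, where T10 replicate 1 drops most.

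In 3 domains there was no H3K4me3 peak in any library. They were TIL1, AT2G25730 and the smaller piece of MDN1, whose peak covers part of the gene away from the H3K4me3 end. Of the 3 domains without a protein-coding gene inside, one was that piece of MDN1, one held 49.2% of the length of MAPKKK7 and so missed the gene rule narrowly, and one, at chr1:10089730-10094875, held 8 tRNA genes. The tRNA cluster had H3K4me3 over 11.1% to 15.2% of its length and kept at least 98.2% of its H3K36me3 cover in all later libraries.

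H3K36me3 stayed over the domains through cold and return. The median share of a domain under H3K36me3 peaks was 95.3% and 98.1% in the 40V libraries and 91.9% and 97.1% in the T10 libraries, beside 100% in both NV libraries, where the rule set it. At least 90% of the length was covered in 346 and 401 domains at 40V and in 265 and 418 at T10. In all 4 later libraries at once, 394 domains kept at least 80% and 224 at least 90%. A single peak of at least 5000 bp was found again in 368 and 403 domains at 40V and in 309 and 389 at T10. In 287 domains this held in all 4 later libraries, and in 18 domains in none.

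Because the edges come from an NV library, later libraries could only match or fall short of them. A domain was called different where both libraries of one time lay beyond both of the other and the means differed by at least 10 percentage points. By this rule 49 domains had less H3K36me3 cover at 40V than in NV and none had more, beside 13.6% lower and 0.00% higher of the 12079 NV peaks shared by both replicates. For T10 against NV 65 were lower and none higher, beside 18.6% lower and 0.00% higher. These contrasts use the libraries of the rule and are not tested. Between T10 and 40V, which the rule did not use, 10 domains were higher and 26 lower at T10, beside 4.93% higher and 9.21% lower of the shared peaks. The library medians overlapped, the difference of their means was -2.23 percentage points, and the exact permutation p over 4 libraries was 0.667, where the smallest that 2 against 2 can give is 0.333. The lowest cover was in T10 replicate 1, also the H3K36me3 library with the fewest tags, and the part of depth in it was not tested.

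**Figure D3:**
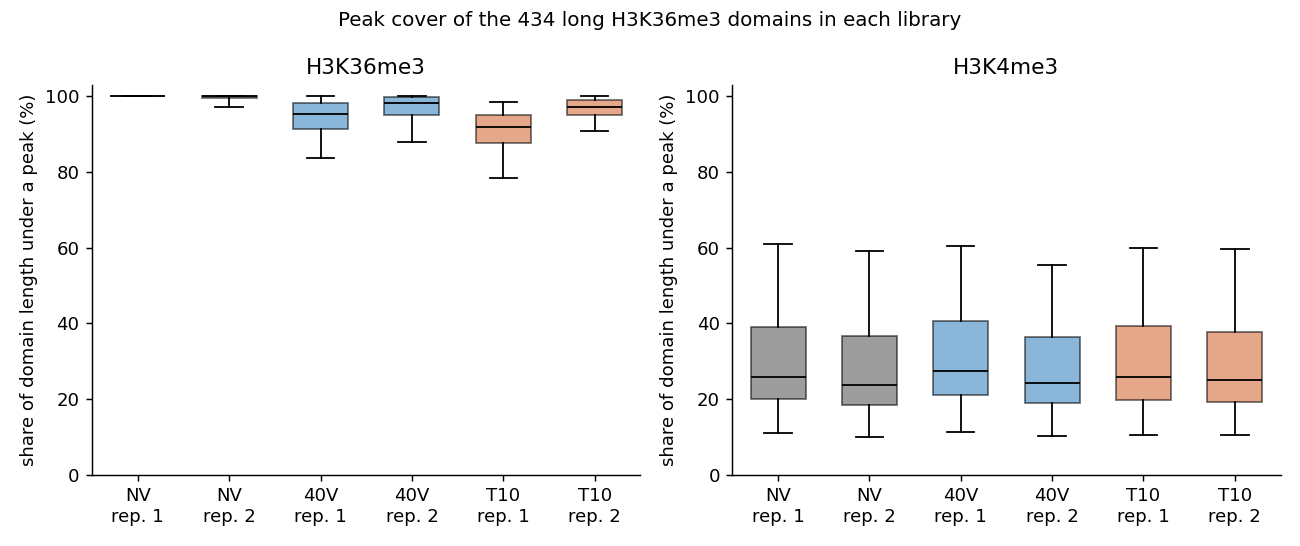
Boxes give the share of each of the 434 domains under a peak, in percent, for H3K36me3 (left) and H3K4me3 (right) in each library (line, median; box, quartiles; whiskers, 5th and 95th percentile). H3K36me3 medians lie between 91.9% and 98.1% at 40V and T10, and H3K4me3 medians between 23.7% and 27.4% throughout.

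The missing cover lay mostly at the far end of the domain. In single-gene domains, H3K36me3 covered at least 98.8% of the near part and at least 99.03% of the middle part on average in all libraries. The far part was covered to 82.0% and 90.4% at 40V and to 73.3% and 90.6% at T10, beside 98.8% in NV replicate 2. In domains with several genes the far part averaged 87.8% and 93.2% at 40V and 77.8% and 90.7% at T10. Their near part had lost some as well, with 96.0% and 98.0% at 40V and 93.8% and 97.2% at T10, while their middle part was at least 99.08%. Replicate 1 was the lower at both times, and the 2 times overlapped.

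The domain with the least cover at 40V was that of GLT1, the NADH-dependent glutamate synthase of ammonium assimilation, at chr5:21700045-21706773. Its H3K36me3 covered 100% and 99.7% in NV, 69.1% and 75.4% at 40V, and 85.0% and 90.8% at T10. Its H3K4me3 moved the same way, with 68.5% and 60.1% in NV, 35.8% and 34.4% at 40V, and 57.9% and 60.8% at T10, so that the 40V libraries lay below all others for both marks. RNA of GLT1 was 215 and 369 in NV, 208 and 203 after 40 d of cold, and 119 and 229 at T10, and no change passed the test. GLU1, the gene of the ferredoxin-dependent glutamate synthase of leaves, had a like course of H3K4me3: 37.1% and 36.8% in NV, 25.6% and 21.4% at 40V, and 33.3% and 33.8% at T10. Its H3K36me3 was 73.2% and 90.4% at 40V and 73.7% and 90.4% at T10.

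The next lowest at 40V were EIF4G, a translation initiation factor (79.1% and 76.2%), AT3G63460, annotated as SEC31B of the vesicle coat (76.5% and 81.0%), AT3G50370 (77.9% and 82.4%) and the domain of ROS3 (72.8% and 88.8%), an RNA-binding protein of DNA demethylation, which fills 26.7% of its domain. Of these genes AT3G50370 rose in RNA after 40 d of cold, with 101.5 and 88.3 normalised counts against 28.2 and 58.6 in NV (log2 change 1.22 ± 0.32 SE, limma adjusted p 0.01104), a call that ended on leaving out the deeper library of NV (0.0954) or of 40 d, and ROS3 rose as given below, while EIF4G and AT3G63460 had no call. At T10 they had 79.6% and 84.9% for EIF4G, 93.3% and 95.7% for AT3G63460, 89.99% and 93.8% for AT3G50370, and 93.2% and 98.3% for ROS3. In all 4 domains both T10 libraries lay above both 40V libraries, in EIF4G by less than 10 points. They and the GLT1 domain were picked for low cover at 40V, so higher cover at T10 follows in part from that choice. Over the whole set 10 domains were called higher and 26 lower at T10 than at 40V. Among the 5 largest gains at T10 over 40V were also emb1507, a splicing helicase gene, with 99.5% and 99.04% at T10 against 77.5% and 87.8% at 40V, and the pair AT3G52240 and AT3G52250 with 96.7% and 97.8% at T10 against 80.6% and 87.9% at 40V.

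The largest losses after the return, apart from the ribosomal RNA genes described next, were in RAPTOR2, a partner of TOR, with 56.7% and 75.9% at T10 against 94.4% and 94.7% at 40V. The pair AT1G26170 and AT1G26180 had 57.5% and 92.0% at T10 against 100% in both 40V libraries, and TIL1 had 58.9% and 92.1% at T10 against 99.2% and 100% at 40V. In this pair and in TIL1 most of the loss was in T10 replicate 1. RAPTOR2 RNA was 8.37 and 9.23 in NV, 4.08 and 3.99 after 40 d of cold and 7.92 and 8.84 at T10. It fell after 40 d of cold (log2 change -1.12 ± 0.27 SE, limma adjusted p 0.007392), and its rise at T10 over 40 d (1.01 ± 0.31, adjusted p 0.03102) was lost without any 1 of its 4 libraries, with an adjusted p of up to 0.215.

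In all, 2 of the domains lie over 45S ribosomal RNA genes, at chr2:718-10593 and chr3:14191555-14205292, where reads of a many-copy repeat fall on few annotated copies. They carried all marks at once in NV, with H3K4me3 over 84.7% and 97.7% of the chromosome 2 block and H3K27me3 over 95.2% and 100% of it. At T10 both H3K4me3 libraries had no peak there, H3K27me3 had none in replicate 1 and covered 100% in replicate 2, and H3K36me3 covered 100% in replicate 1 and 18.6% and 30.6% of the 2 blocks in replicate 2. The T10 libraries thus did not match each other at these repeats. RNA of AT2G01021, a gene annotated in the chromosome 2 block, was 178 and 197 in NV, 49.0 and 41.2 after 40 d of cold, and 17.6 and 14470 at T10, so its T10 mean rests on 1 library (log2 change at T10 over NV 1.97 ± 1.95 SE, adjusted p 0.495).

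Across the set no shift of H3K4me3 between the times was detected. Mean cover was 31.6% and 28.2% at 40V and 29.98% and 29.2% at T10, against 30.5% and 28.5% in NV, and the exact permutation p was 1.0 for each of the 3 contrasts. At 40V against NV 1 domain was higher and 5 were lower, beside 2.90% higher and 6.32% lower of the shared peaks. T10 against NV gave 0 higher and 2 lower, beside 1.67% and 0.720%, and those 2 were the ribosomal RNA gene blocks. T10 against 40V gave 5 higher and 3 lower, beside 6.91% and 1.90%.

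The 5 domains that were lower in H3K4me3 at 40V than in NV held GLT1, GLU1, ROS3, the starch synthase gene SS4 with its neighbours AT4G18220 and AT4G18230, and the 3 genes WTF1, AT4G01040 and TROL. The single higher one was ARA1, with 48.0% and 35.1% at 40V against 27.2% in both NV libraries, and 27.3% and 26.0% at T10. Higher at T10 than at 40V were GLT1, GLU1, ROS3, SS4 with its neighbours, and the domain of FHIT, EMB3143, NdhN and ABCB25. ROS3 rose in RNA after 40 d of cold, as given below. Its domain had H3K4me3 over 49.8% and 50.3% at 40V against 67.4% and 61.7% in NV. ROS3 fills 26.7% of that domain, and where in it the H3K4me3 changed was not examined. This handful of genes was chosen after the values were seen.

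H3K27me3 was nearly absent. In NV 426 and 428 of the 434 domains had no H3K27me3 peak at all, at 40V 423 and 428, and at T10 424 and 429. This was not particular to the long domains. Of the 11645 other shared peaks, 98.4% and 98.9% had no H3K27me3 in NV, 97.1% and 98.9% at 40V, and 97.7% and 98.7% at T10. No domain was called higher or lower in any contrast, beside 0.0993% higher and 0.00% lower of the shared peaks for 40V against NV, 0.149% and 0.0166% for T10 against NV, and 0.0248% and 0.0166% for T10 against 40V. The exact permutation p was 0.667, 0.333 and 0.333 in that order, and 0.333 is the smallest 4 libraries can give. Mean H3K27me3 cover was 0.597% and 0.495% in NV, 0.625% and 0.531% at 40V, and 0.204% and 0.486% at T10. Without the 2 ribosomal RNA gene blocks it was 0.152% and 0.0348%, 0.198% and 0.0705%, and 0.205% and 0.0251%. The libraries of the 3 times then overlapped, so the values of 0.333 rest on those blocks. Apart from the ribosomal RNA gene blocks, RST1, a cuticular wax gene, was the single domain with H3K27me3 over at least 10% of its length in both NV libraries, with 11.7% and 10.0%. It had 15.6% and 9.73% at 40V, and 11.4% and 0% at T10.

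The genes inside had more RNA than the usual gene, by less when counted per length. In NV their median was 19.1 normalised counts, beside 6.16 over all genes in the table, and 428 of 574 had at least 10. Per kb of gene the median was 2.97, beside 2.43 over all genes, and 5% to 95% of the members lay between 0.806 and 15.1, a narrower range than the 0.288 to 25.4 of all genes. The median member level stayed between 17.6 and 22.0 in all 7 groups.

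In each of the 7 contrasts a smaller share of these genes was called than of all genes tested. A gene was called where its limma p, adjusted by Benjamini-Hochberg over all 18766 genes, was under 0.05. After 40 d of cold 94 of the 574 genes rose and 53 fell, that is 16.4% and 9.23%, beside 16.5% and 18.3% of all genes. At T10 against NV 75 rose and 52 fell, beside 13.7% and 10.7% of all genes, and at T10 against 40 d of cold 43 rose and 40 fell, beside 13.3% and 10.1%. After 1 d of cold 53 rose and 44 fell, beside 13.8% and 12.2%. After 10 d 82 rose and 41 fell, beside 13.2% and 14.5%, and after 20 d 76 rose and 35 fell, beside 13.8% and 14%. After 1 h none was called, beside 0.0799% higher and 0.00533% lower. An unadjusted limma p under 0.05 was found there for 25 members (4.36%), beside 8.01% of all genes. The libraries of 1 h and of NV differed within their groups, as given above, so the lack of calls does not show that no gene changed. In none of the 7 contrasts were 284 members called, a count that was not made for all genes and so has no background beside it. The share of members called varied with gene length. Of the 190 members under 5000 bp, 20.0% rose and 11.6% fell after 40 d of cold, beside 8.70% and 4.35% of the 92 of at least 10000 bp. For T10 against NV these shares were 14.7% and 9.47%, beside 7.61% and 7.61%. Shares of all genes by length were not counted, and the gap between the NV libraries was wide in the long members.

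**Figure D4:**
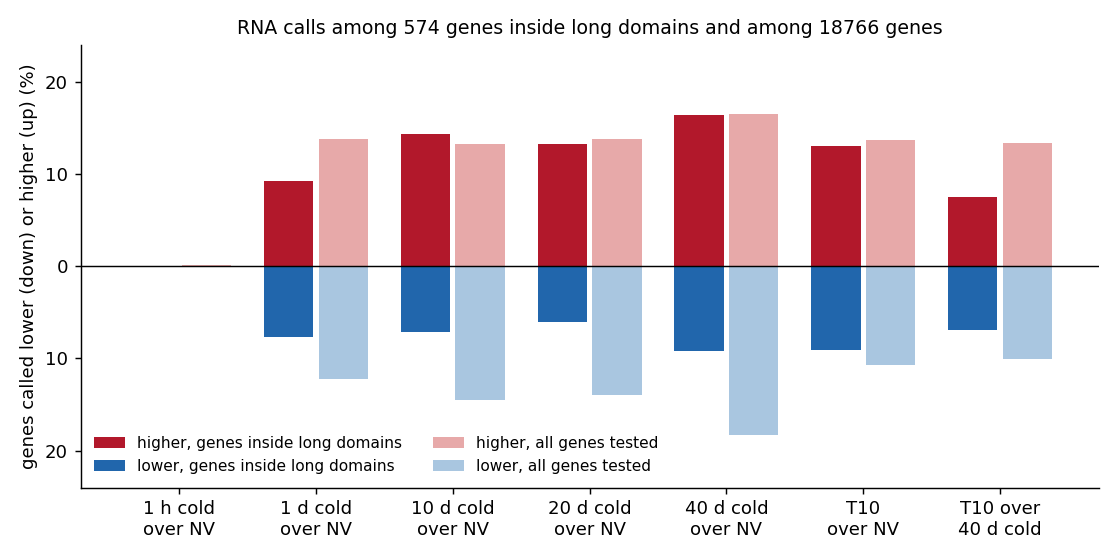
Bars give the percentage of genes called higher (upward) or lower (downward) by limma in each contrast, with the 574 genes inside long domains (dark) left of all 18766 genes tested (light). After 40 d of cold 9.23% of domain genes were lower, beside 18.3% of all genes, while the shares of higher genes were 16.4% and 16.5%.

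Large changes were scarce. Only 7.67% of domain genes differed by 2-fold or more after 40 d of cold, beside 25.9% of all genes, at T10 against NV 10.8% beside 26.0%, and at T10 against 40 d 6.45% beside 25.3%. The difference was also there without low counts: among genes with a mean of at least 10 over the 7 groups, a limit added after the values were seen, 6.25% of 448 domain genes and 20.0% of 6987 genes changed 2-fold after 40 d of cold. In that range 17.4% of domain genes rose and 8.48% fell after 40 d, beside 20.4% and 20.1% of all. At T10 against NV 13.2% rose and 10.7% fell, beside 16.8% and 17.0%, and at T10 against 40 d 6.47% rose and 8.26% fell, beside 15.7% and 15.8%. For the earlier times 45 rose and 28 fell after 1 d (beside 17.3% and 12.9%), 73 and 29 after 10 d (18.1% and 16.5%), 66 and 25 after 20 d (18.1% and 16.2%), and none after 1 h (0.143% and 0.00%). The median log2 change of domain genes was 0.12 after 40 d of cold and 0.11 at T10, beside 0.00 and -0.03 for all genes. It was -0.16, -0.03, 0.19 and 0.13 after 1 h, 1 d, 10 d and 20 d, beside 0.009, -0.0025, 0.0037 and 0.0071. In domain genes of at least 10000 bp it was -0.28 after 1 h, 0.12 after 40 d and 0.10 at T10. In those under 5000 bp it was -0.06, -0.01 and 0.08. These are shares and medians beside a background, and the differences between them were not tested.

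By size alone, with no test, a gene counted where its deposited means differed at least 2-fold on the log2(value + 1) scale and the higher was at least 1. After 40 d of cold 16 domain genes were higher and 9 lower, beside 5.96% and 9.34% of all 18779 genes. T10 against NV gave 43 and 7 (7.95% and 7.77%), and T10 against 40 d 24 and 12 (9.04% and 6.4%). Shorter cold gave 0 and 1 at 1 h (1.00% and 0.101%), 14 and 13 at 1 d (5.83% and 6.42%), 12 and 12 at 10 d (4.86% and 8.56%), and 11 and 12 at 20 d (5.13% and 8.39%). With a pseudocount of 0.5 the shares of all genes were 7.42% higher and 11.2% lower after 40 d, 9.62% and 9.76% at T10 against NV, and 10.9% and 8.12% at T10 against 40 d. They were 1.36% and 0.25% at 1 h, 7.23% and 8.15% at 1 d, 5.94% and 10.3% at 10 d, and 6.60% and 10.3% at 20 d.

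Many calls were lost when 1 library was left out, a fit that leaves 1 library in that group. The libraries themselves mostly kept apart. In all 147 genes called after 40 d of cold, both libraries of 1 group lay beyond both of the other. The same was seen in 125 of 127 at T10 against NV and 82 of 83 at T10 against 40 d. After 40 d of cold 48 of the 147 called genes, 33 up and 15 down, stayed called whichever of their own 4 libraries was left out. At T10 against NV this held for 28 of 127, and at T10 against 40 d for 21 of 83. The 7 markers of root cells summed to 37.7 and 29.8 normalised counts in NV, 1.59 and 1.92 after 40 d of cold, and 11 and 12.5 at T10. Of these 6 fell after 40 d and 4 at T10. The 6 leaf markers summed to 9040 and 5761 in NV, 10720 and 11590 after 40 d, and 5367 and 4656 at T10. Of these 1 rose and 2 fell after 40 d, and 1 fell at T10. CAB2, a chlorophyll-binding protein gene, carried the rise with a mean of 5601 after 40 d against 1573 in NV (log2 change 1.88), while RBCS3B, of the Rubisco small subunit, had 37.8 against 809 (-4.40) and CA1, a carbonic anhydrase gene, 47.4 against 561.5 (-3.50). CAB2 and RBCS3B have near-identical copies, so their counts are uncertain. In whole seedlings fewer cells of a type and less RNA per cell cannot be told apart, and the part of organ make-up in the changes below was not tested.

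The largest change called among domain genes after 40 d of cold was that of ACA8, and AT4G33540, XDH2 and SEX1 came next. ACA8, a calcium pump of the plasma membrane, had 33.1 and 36.3 normalised counts in NV, 254 and 275 after 1 d of cold, 155 and 165 after 40 d, and 57.5 and 60.5 at T10. It rose after 40 d (log2 change 2.21 ± 0.14 SE, limma adjusted p 1.115e-06) and fell at T10 against 40 d (-1.45 ± 0.14, adjusted p 2.707e-05). All cold libraries from 1 d on lay above all NV and T10 libraries. XDH2, a xanthine dehydrogenase of purine breakdown, had 4.45 and 8.99 in NV, 20.4 and 25.1 after 40 d, and 5.19 and 3.47 at T10. It rose after 40 d (1.87 ± 0.29, adjusted p 0.0005925) and fell at T10 against 40 d (-2.23 ± 0.39, adjusted p 0.001512), a call lost without the deeper T10 library (adjusted p 0.0913).

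SEX1, the glucan water dikinase that phosphorylates starch for its breakdown, rose both in cold and after it. It had 31.5 and 48.7 normalised counts in NV, 129.7 and 128 after 40 d of cold, and 365 and 367 at T10. The log2 change was 1.72 ± 0.19 SE after 40 d (limma adjusted p 4.161e-05), 3.23 ± 0.19 at T10 against NV (1.647e-06) and 1.504 ± 0.19 at T10 against 40 d (0.0001494). SS4, the starch synthase that starts granules, was at 5.18 and 14.7 in NV and 12.01 and 14.6 after 40 d, where no change was called. It had 41.4 and 37.5 at T10 and rose there against NV (2.23 ± 0.35, adjusted p 0.0009695). Its rise over 40 d (1.59 ± 0.34, adjusted p 0.004894) was lost without the deeper T10 library (0.0866).

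**Figure D5:**
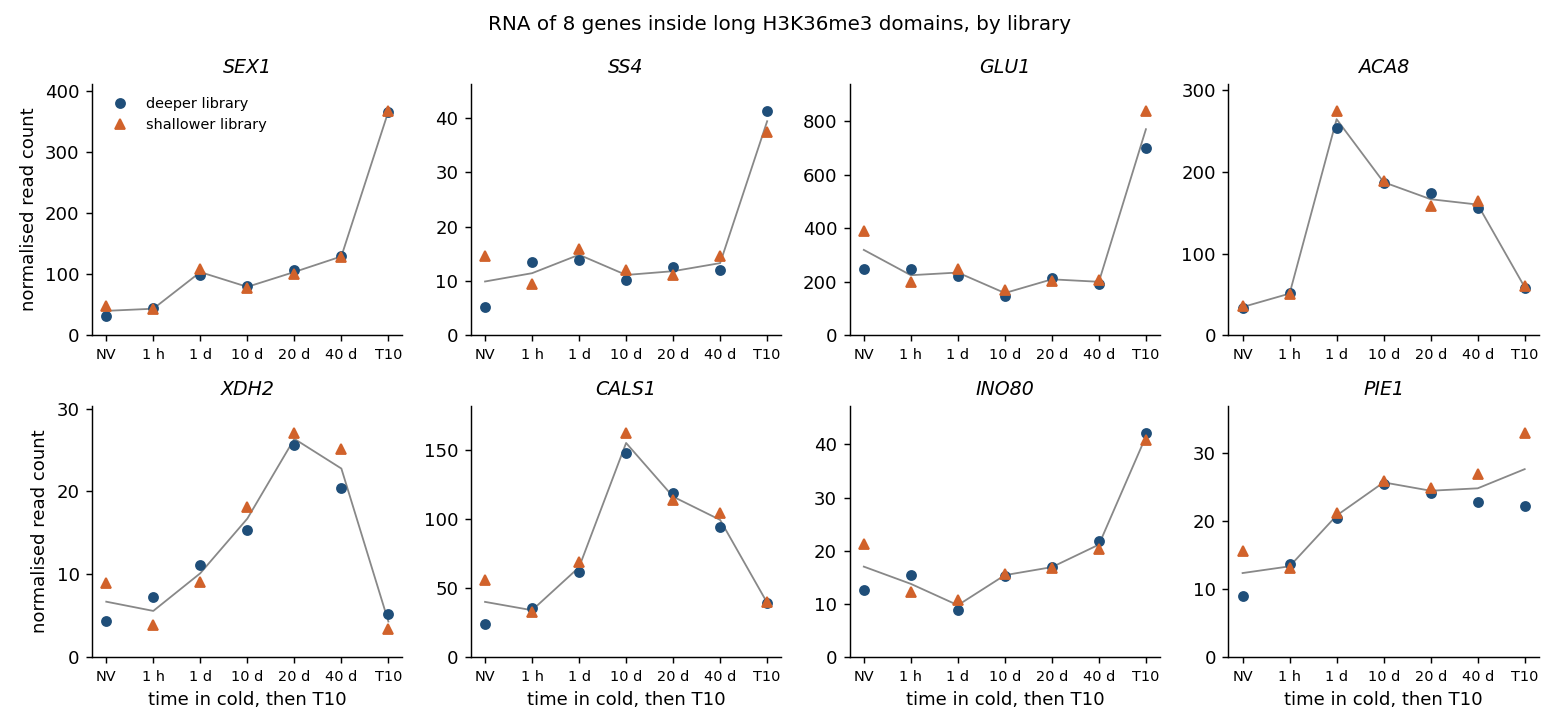
Points give the normalised read count of 8 domain genes in the deeper (circles) and shallower (triangles) library of each group, with a line through the group means, from NV through 5 times of cold to T10. SEX1, SS4 and GLU1 are highest at T10, ACA8 at 1 d, CALS1 at 10 d and XDH2 at 20 d of cold. The NV libraries lie close in ACA8 and differ in the other genes shown.

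GLU1 was high after the return. It had 248 and 391 normalised counts in NV, 193 and 207 after 40 d of cold, and 701 and 839 at T10, where it rose against NV (log2 change 1.31 ± 0.22 SE, limma adjusted p 0.001218) and against 40 d (1.95 ± 0.21, 5.333e-05). Its fall after 40 d (-0.64 ± 0.22, adjusted p 0.03586) was lost without the shallower NV library (0.246) and without either 40 d library. ACD32.1, an alpha-crystallin domain protein, had 14.9 and 6.61 in NV, 16.1 and 17.9 after 40 d, and 78.1 and 98.0 at T10. It rose at T10 against NV (3.10 ± 0.31, adjusted p 5.237e-05) and against 40 d (2.35 ± 0.30, adjusted p 0.000149). Both T10 libraries lay far above all others.

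Among the 8 largest changes after 40 d were also AT4G33540 (2.06 ± 0.25 SE), AT5G02830 (1.67 ± 0.20) and ROS3 (1.56 ± 0.22), which rose, and AT1G18270 (-1.61 ± 0.18) and AT1G06550 (-1.55 ± 0.26), which fell. ROS3 had 3.93 and 5.76 normalised counts in NV, 14.3 and 13.4 after 40 d of cold, and 13.1 and 13.0 at T10. It rose at T10 against NV as well (1.48 ± 0.24, limma adjusted p 0.001193). AT1G06550 had 9.36 and 12.8 in NV, 3.11 and 4.53 after 40 d, and 11.2 and 12.7 at T10, and rose at T10 against 40 d (1.64 ± 0.29, adjusted p 0.001482). At T10 the levels of ROS3 stayed with those of 40 d, while those of AT1G06550 lay with NV.

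The rest of the 8 largest at T10 against NV were AT1G16810 (log2 change 1.93 ± 0.29 SE), which rose without dependence on 1 library, and 4 that did not hold. AT2G33435 (2.00 ± 0.46) was lost without the deeper NV (limma adjusted p 0.0617) or the deeper T10 library, AT5G28400 (1.85 ± 0.53) without any of 3 libraries (up to 0.158), AT1G03365 (1.79 ± 0.38) without the deeper T10 library (0.0550), and AT3G41762, in the chromosome 3 ribosomal RNA gene block (-1.79 ± 0.41), without the deeper T10 library (0.365). Against 40 d of cold, AT5G56670 (-1.99 ± 0.21) fell at T10. YLMG2 (-1.79 ± 0.32) fell and AT4G18220 (1.70 ± 0.36) rose there, both lost without the deeper T10 library (0.147 and 0.142). AT4G18220 shares its domain with SS4.

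Chromatin remodellers and coactivators stood in domains in 10 of 11 cases, the exception being the H3K4 methyltransferase gene ATX1, at 7160 bp the shortest of the 11. The lists given here were chosen with earlier results of these data known. At T10 against NV 5 of the 10 rose and none fell, with a median log2 change of 0.92, beside 13.7% higher and 10.7% lower of all genes tested and a median of -0.03. After 40 d of cold 1 rose and none fell, with a median of 0.47, beside 16.5% and 18.3% of all genes and a median of 0.00. These shares of all genes are also the ones to set beside the lists that follow. INO80, the ATPase of the complex of that name, had 12.7 and 21.4 normalised counts in NV, 21.9 and 20.4 after 40 d, and 42.2 and 40.8 at T10, and rose at T10 (1.35 ± 0.22 SE, limma adjusted p 0.001264). The call held without any 1 library. PIE1, the ATPase that loads histone H2A.Z, had 9.08 and 15.7 in NV, 22.8 and 26.8 after 40 d, and 22.3 and 33.0 at T10. It rose after 40 d (1.06 ± 0.23, adjusted p 0.004147) and at T10 (1.11 ± 0.25, adjusted p 0.007282), the second lost without the deeper NV library (0.0528).

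SYD, a SWI/SNF ATPase with a domain of 13899 bp, had 29.4 and 61.0 normalised counts in NV, 63.5 and 65.3 after 40 d of cold, and 86.4 and 124 at T10. Its rise at T10 (1.27 ± 0.32 SE, limma adjusted p 0.01252) was lost without the deeper NV library (0.0911) or the shallower T10 library. CHR5 (1.03 ± 0.23, adjusted p 0.006782) was lost without the deeper NV library (0.0513), and the histone acetyltransferase gene HAC1 (0.81 ± 0.25, adjusted p 0.03702) without any of 3 libraries (up to 0.262). BRM, the other SWI/SNF ATPase, had 43.2 and 77.9 at T10 against 16.5 and 44.6 in NV, with no call (1.04 ± 0.40, adjusted p 0.0763). In SYD, BRM and HAC1 the shallower NV library lay close to the 40 d libraries and the deeper one well below them.

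Genes of the cytoskeleton and membrane traffic were all inside (11 of 11). After 40 d of cold 1 rose, AT4G17140, with 108 and 121 normalised counts against 36.3 and 80.6 in NV (log2 change 1.08 ± 0.31 SE, limma adjusted p 0.01897), a call that ended on leaving out the deeper NV library (0.165) or any 1 of the 40 d libraries. At T10 the clathrin heavy chain gene CHC1 (AT3G11130) fell, with 144 and 154 against 219.6 and 327 in NV (-0.85 ± 0.20, adjusted p 0.008242), lost without the deeper T10 library (0.0738). The myosin gene XIK rose at T10 (0.77 ± 0.26, adjusted p 0.04574), lost without any of 3 libraries (up to 0.318). TPLATE, of an endocytic complex, fell at T10 against 40 d (-0.59 ± 0.20, adjusted p 0.04682), lost without any 1 of its 4 libraries (up to 0.294).

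Callose synthase genes were inside in 5 of 8 cases: CALS1, GSL03, GSL8, GSL10 and GSL12. CALS1 was the single one of the 5 to change. It had 24.3 and 56.0 normalised counts in NV, 94.0 and 104.7 after 40 d of cold, and 39.0 and 40.1 at T10. It rose after 40 d (log2 change 1.43 ± 0.28 SE, limma adjusted p 0.00236) and fell at T10 against 40 d (-1.33 ± 0.30, adjusted p 0.006829), the second lost without the deeper T10 library (0.0877). Outside the domains GSL05 and GSL1 fell at T10 against NV (-1.19 and -0.72).

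The kinase list changed little. ATPI4K ALPHA, a lipid kinase of the plasma membrane, had 55.5 and 74.6 normalised counts in NV, 38.1 and 37.1 after 40 d of cold, and 36.4 and 43.5 at T10. It fell after 40 d (log2 change -0.78 ± 0.18 SE, limma adjusted p 0.006123) and at T10 (-0.72 ± 0.19, adjusted p 0.01684), the second lost without the shallower NV or the deeper T10 library (up to 0.222). FAB1A, a kinase of endosomal lipids, rose after 40 d (0.82 ± 0.22, adjusted p 0.01283), lost without any of 3 libraries (up to 0.114). TOR had 80.3 and 96.7 in NV, 70.3 and 66.5 after 40 d, and 79.4 and 113 at T10, and ATM 16.7 and 38.1, 28.1 and 29.95, and 25.9 and 29.3 at these times, with no call in either.

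Of 9 genes for ubiquitin ligases and other very large regulators 7 were inside, among them BIG, UPL1, UPL2, KAK (UPL3) and SWEETIE. PRT6, the ligase of the N-degron pathway, fell after 40 d of cold (log2 change -0.62 ± 0.19 SE, limma adjusted p 0.02506) and rose at T10 against 40 d (0.63 ± 0.20, adjusted p 0.03548). Both calls were lost on leaving out single libraries (up to 0.166 and 0.230). No other member of the 7 was called. Of 9 genes of RNA polymerases, splicing, RNA decay and ribosome assembly 8 were inside, among them DCL1, NRPA1, SUS2, MDN1 and emb1507, and none was called at 40 d, at T10 or between them.

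Nuclear pore genes were inside in 4 of 4 cases. NUA, of the nuclear basket, had 18.5 and 26.2 normalised counts in NV, 33.2 and 34.2 after 40 d of cold, and 39.3 and 53.1 at T10. It rose at T10 (log2 change 1.01 ± 0.20 SE, limma adjusted p 0.003613) whichever library was left out, and after 40 d (0.62 ± 0.19, adjusted p 0.02474) only with the deeper NV library and both 40 d libraries kept (up to 0.208). EMB3142 fell at T10 (-0.70 ± 0.19, adjusted p 0.02054), lost without any of 3 libraries (up to 0.139). The metabolic list had ACC1, GLT1 and GLU1, all inside, of which GLU1 was called as described.

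Of 9 writers, readers and erasers of H3K36 methylation EFS (SDG8), the main methyltransferase, was inside, and the other 8 genes were outside. EFS is 9533 bp long, and the 8 others are 2395 to 3229 bp, a length class in which 0.779% of all genes were inside. EFS lay in a domain of 7548 bp that kept 85.3% and 88.1% of its H3K36me3 cover at 40V and 90.8% and 95.1% at T10. It had 10.2 and 25.3 normalised counts in NV, 22.1 and 23.1 after 40 d of cold, and 33.9 and 46.7 at T10. Its rise at T10 (log2 change 1.27 ± 0.34 SE, limma adjusted p 0.01779) was lost without the deeper NV library (0.117) or either T10 library. Of the 8 tested, 3 rose after 40 d (ASHH1, AT4G37280 and JMJD5) and 2 at T10 (EFS and AT4G37280), and none fell, beside 16.5% of all genes higher and 18.3% lower after 40 d and 13.7% and 10.7% at T10.

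Of 13 genes of RNA polymerase II elongation, GTB1 (SPT6-like) and ELF8, of the PAF1 complex, the longest of the 13 with 8095 and 7785 bp, were inside, and neither was called. Of the 11 others 4 rose at T10 against NV, beside 13.7% of all genes. Of the 11 genes of vernalization and photoperiod none was inside a domain (the longest is 6067 bp), so FLC, VIN3 and the others are not among the 574. Of the 10 tested, 6 rose and 1, FLC, fell after 40 d of cold, and 4 rose and FLC fell at T10.

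Changes of cover and of RNA were weakly related across the domains. Over 301 single-gene domains Pearson's r between the change of H3K36me3 cover and the log2 change of RNA was -0.14 for 40V against NV, 0.09 for T10 against 40V and -0.01 for T10 against NV. The points share their libraries, and cover is close to its ceiling in most of them. For T10 against 40V, which the rule did not use, the median log2 RNA change was -0.11 in the 30 domains with the largest loss of cover, 0.12 in the 30 with the largest gain and 0.00 over all 301. For 40V against NV the same medians were 0.41, 0.22 and 0.10, so both ends lay above the whole.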

How the data were processed

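ChIP-seq peaks of 18 libraries (3 marks, 3 times, 2 replicates) and RNA-seq means of 7 groups were used as deposited. Peaks were called in each library against the input of its time with MACS 2.1.1.20160309, per the file headers, with a q limit of 5.00e-02, reads extended to 600 bp, 1 tag kept per position and narrow peaks. The deposited peak files give a length and a summit position, the pileup signal, the fold enrichment over input and −log10 p and q values, all as the authors' peak caller wrote them. The deposited RNA values are the authors' normalised counts averaged over 2 libraries, a signal that is not whole reads. The submitters' processing notes also name Bowtie2, TopHat, edgeR and TAIR10, with no role stated, and per the labels' protocols RNA was depleted of ribosomal RNA and libraries kept strand.

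Each RNA mean was split into whole reads of its 2 libraries, which succeeded for 18766 of 18779 genes within a tolerance of 1e-12. The split libraries carry no replicate number, so they are named by depth. These reads were tested with limma 3.58.1 (voom, R 4.3.3) on all 14 libraries, two-sided, with Benjamini-Hochberg adjustment over 18766 genes and a threshold of 0.05. This was tested on simulated data for 40 d of cold against NV over 18766 genes, with 200 changed: 100% of 4-fold and 55% of 2-fold changes were found, and 4.91% of calls were false. The simulation gave all genes and groups the same spread, without the gap between the NV libraries described above. These shares therefore need not hold for long genes against NV. Peak cover is the percent of a domain's length under peaks of a library, and it depends on depth and on the q limit. Tables and figures used Python 3.11.15, numpy 2.4.6, pandas 2.3.3 and matplotlib 3.10.9. Gene positions and names came from a RefSeq table of assembly TAIR10.1, in which 18610 of the gene IDs matched.

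The members and the gene lists were chosen with earlier results of these data known. Named genes were, for 40 d and T10 against NV and T10 against 40 d, the 8 largest called changes inside domains, the called genes of the lists and the genes of the 10 longest domains. Named domains were the 10 longest, the 5 with least H3K36me3 cover at 40V and at T10, the 5 largest differences each way between them, those with H3K27me3 over at least 10% in both NV libraries and the 3 nearest the limit on each side. Other genes were chosen after their values were seen.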

Additional observations from a re-analysis of the deposited data

Results flagged for a closer look

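For 4 genes inside domains the cold and the return went opposite ways against NV: each was called in one direction after 40 d of cold and in the other at T10, and the direct contrast of T10 with 40 d was called too. These contrasts share libraries, so they are not separate evidence. GLU1 (AT5G04140), described above, had a log2 difference of 1.954 between T10 and 40 d. AT5G56670 had 17.6 and 23.7 normalised counts in NV, 48.4 and 49.0 after 40 d of cold and 12.8 and 10.8 at T10. It rose after 40 d (log2 change 1.26, limma adjusted p 0.0002622) and fell at T10 against 40 d by -1.992 (adjusted p 3.969e-05), while its fall against NV (-0.74, 0.02519) was lost without any of 3 libraries (up to 0.164).

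ATSTE24 (AT4G01320) had 35.5 and 29.1 normalised counts in NV, 46.7 and 41.7 after 40 d and 17.7 and 17.3 at T10, with a log2 difference of -1.325 between T10 and 40 d (limma adjusted p 0.0002074). Its rise after 40 d against NV was lost without any of 3 libraries (up to 0.193) and its T10 fall against NV ended on leaving out the deeper library of T10 (0.0786). YLMG2 (AT5G21920) had 11.3 and 9.61 in NV, 17.0 and 17.4 after 40 d and 4.78 and 5.72 at T10, with a difference of -1.789 (adjusted p 0.001596) that was lost without the deeper T10 library (0.147). Its rise after 40 d was lost without any 1 of 4 libraries (up to 0.118), and its fall at T10 against NV without any of 3 (up to 0.459).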

How the results depend on the processing

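Leaving out 1 library at a time gave, for higher and lower genes, 21 to 83 and 12 to 66 after 1 d of cold, 33 to 154 and 12 to 53 after 10 d, 31 to 148 and 11 to 57 after 20 d, 43 to 166 and 19 to 75 after 40 d, 36 to 144 and 6 to 77 at T10 against NV, and 17 to 55 and 17 to 53 at T10 against 40 d. After 1 h the lower genes were 0 to 2. The 2-fold size rule with pseudocounts of 1 and 0.5 gave lower genes of 1 and 2 at 1 h, higher genes of 14 and 16 and lower of 13 and 16 at 1 d, 12 and 14 both ways at 10 d, 11 and 13 higher and 12 and 14 lower at 20 d, 16 and 17 higher and 9 and 11 lower at 40 d, 43 and 47 higher and 7 and 10 lower at T10 against NV, and 24 and 27 higher and 12 and 13 lower at T10 against 40 d. Counting only the 41 genes wholly inside a domain gave 1 higher and 1 lower at 1 d, 2 and 4 at 10 d, 7 and 3 at 20 d, 7 and 4 at 40 d, 6 and 5 at T10 against NV, and 5 and 7 at T10 against 40 d. A mean of at least 10, added after seeing the data, gave 28 lower genes at 1 d, and scaling by reads in nuclear genes, which moved the median of all genes by 0.109 at 10 d, gave 26 lower there. Of 288 alternatives over 48 comparisons of named genes 227 kept the call, 61 lost it and 0 reversed.

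A difference of 20 points in place of 10 left 2 domains lower in H3K36me3 at 40V and 7 at T10 against NV, and 0 higher and 4 lower at T10 against 40V. In H3K4me3 it left 0 higher and 1 lower at 40V against NV and 1 higher at T10 against 40V. Without the 2 ribosomal RNA gene blocks, an alternative added after seeing the data, H3K4me3 had 0 domains lower at T10 against NV and 1 against 40V, and the differences turned to 0.0491 for H3K4me3 at T10 against 40V and 0.0218 for H3K27me3 at T10 against NV (exact permutation p 1.0 each). Without replicate 1 or 2, H3K36me3 was lower in 28 to 88 domains at 40V and 9 to 169 at T10 against NV, and in 3 to 73 at T10 against 40V. H3K4me3 differed by -0.235 to 1.1465 points at 40V against NV (0 to 10 higher, 4 to 9 lower), by -0.4999 to 0.6854 at T10 against NV (2 to 4 lower), and by -1.6464 to 0.9205 at T10 against 40V (2 to 15 lower). H3K27me3 had 1 higher and 0 to 2 lower at 40V against NV, 0 to 1 and 1 to 3 at T10 against NV, and 0 to 2 lower at T10 against 40V. A length limit of 4000 bp gave 803 domains and one of 6000 bp 238.

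With the replicate number as a block, cover calls were 49 lower at 40V and 65 at T10 against NV and 11 higher and 28 lower at T10 against 40V for H3K36me3, and those of the other marks were the same. Same-numbered libraries deviated together at 0.0824 to 0.275 for H3K36me3, 0.118 to 0.267 for H3K4me3 and 0.449 to 0.615 for H3K27me3 (correlations across peaks), and nothing in the labels says that a number marks a shared batch. No paired analysis was possible because the RNA table carries no replicate numbers. The lowest H3K36me3 cover and the fewest H3K36me3 tags were both in T10 replicate 1, and the shallower T10 RNA library had the fewest reads. The causes of these movements were not tested.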
